A study of Bombyx mori with 12 samples.

Results

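The genes described here encode cuticular proteins BmorCPR57 to BmorCPR148 of the silkworm Bombyx mori, which are mostly of the RR-2 type, with RR-3 proteins among the last numbers. They were taken by their sequence name on the array, and 92 of its 32260 sequence names qualified. Insect cuticle is built of chitin fibres and proteins that epidermal cells secrete. Proteins of the CPR family share the Rebers and Riddiford consensus, a stretch that binds chitin. RR-1 proteins are known mainly from soft, flexible cuticle and RR-2 proteins from hard cuticle, and many of these genes are switched on for short periods around a moult.

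Transcript levels were measured on 12 custom Agilent arrays hybridised with Cy3-labelled RNA, in a study of the organ that makes juvenile hormone. The larvae were of the commercial strain Kinsyu x Showa, fed on mulberry leaves at 25 °C. A pair of joined glands behind the brain, the corpora cardiaca and corpora allata (together CC-CA), came from day 4 of the 5th instar on 1 array and from day 2 of the 4th instar on 2 arrays of independent experiments. Epidermis, prothoracic gland, brain, fat body, midgut, Malpighian tubule and salivary gland of day 2 of the 4th instar had 1 array each, as did ovary and testis of the 5th instar at day 10, which was 3 days after the larvae began to wander. The number of animals behind an array and the body region of the epidermis are not stated in the labels.

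Values are log2 of the processed spot signal minus log2 of the 75th percentile of that array, so 0 is the level of a bright but not extreme spot. A signal counted as detected where the scanner software marked it well above background. Every gene had 2 probes, and it is described by its representative probe, the brighter by its median over the 12 arrays. Where both probes were detected on an array (130 pairs of gene and array), their signals differed by a median of 0.14 log2 units, and 96.9% of these pairs differed by less than 1. In another 87 pairs exactly 1 of the 2 probes was detected. How far probes of near-identical cuticular protein genes share targets was not examined. The tests were limma fits over all probes, called at a Benjamini-Hochberg adjusted p below 0.05 and a log2 difference of at least 1. The number of arrays limits their precision, since the only replicate pair was the CC-CA of the 4th instar (1 residual degree of freedom) and each single array was assumed to vary like that pair. A fold against a group whose signal was not well above background is written as a bound, "at least N-fold".

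Markers of CC-CA, brain, fat body, Malpighian tubule, midgut and epidermis were high where the labels placed them. No marker was used for prothoracic gland, salivary gland, testis or ovary. The corpora cardiaca neurohormone genes AKH-1, AKH-2 and pburs were detected on all 3 CC-CA arrays, with a summed level of 7.39 in the 5th instar and 6.33 and 6.49 in the 4th. BmJHAMT, the enzyme of the last steps of juvenile hormone synthesis, stood at -1.55 in the 5th instar CC-CA, against 2.39 and 2.08 in the 4th. The epidermal cuticle genes BmorCPR40 and BmorCPG13 stood at 5.57 and 6.47 in epidermis. BmorCPR40 was detected on none of the other 11 arrays. In whole dissected organs, fewer cells of a type and less RNA per cell cannot be told apart.

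Most RR-2 genes were detected on no array or on a single one. The representative probe was not well above background on any array for 33 of the 92 genes, and neither probe was for 23. Among these were BmorCPR61, 62, 64, 65, 73, 80, 81, 82, 85, 87, 89, 103, 114 to 118, 120 and 135 to 138. Another 20 genes were detected on 1 array, 16 of them by both probes, 36 on 2 to 11 arrays and 3 on all 12. By comparison, 11 of the 56 RR-1 genes (BmorCPR1 to 56) were detected on no array. Over the whole array, 38086 of 42340 probes were detected on every array of at least 1 group. By the representative probe, this held for 58 of the 92 RR-2 genes.

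**Figure D1:**
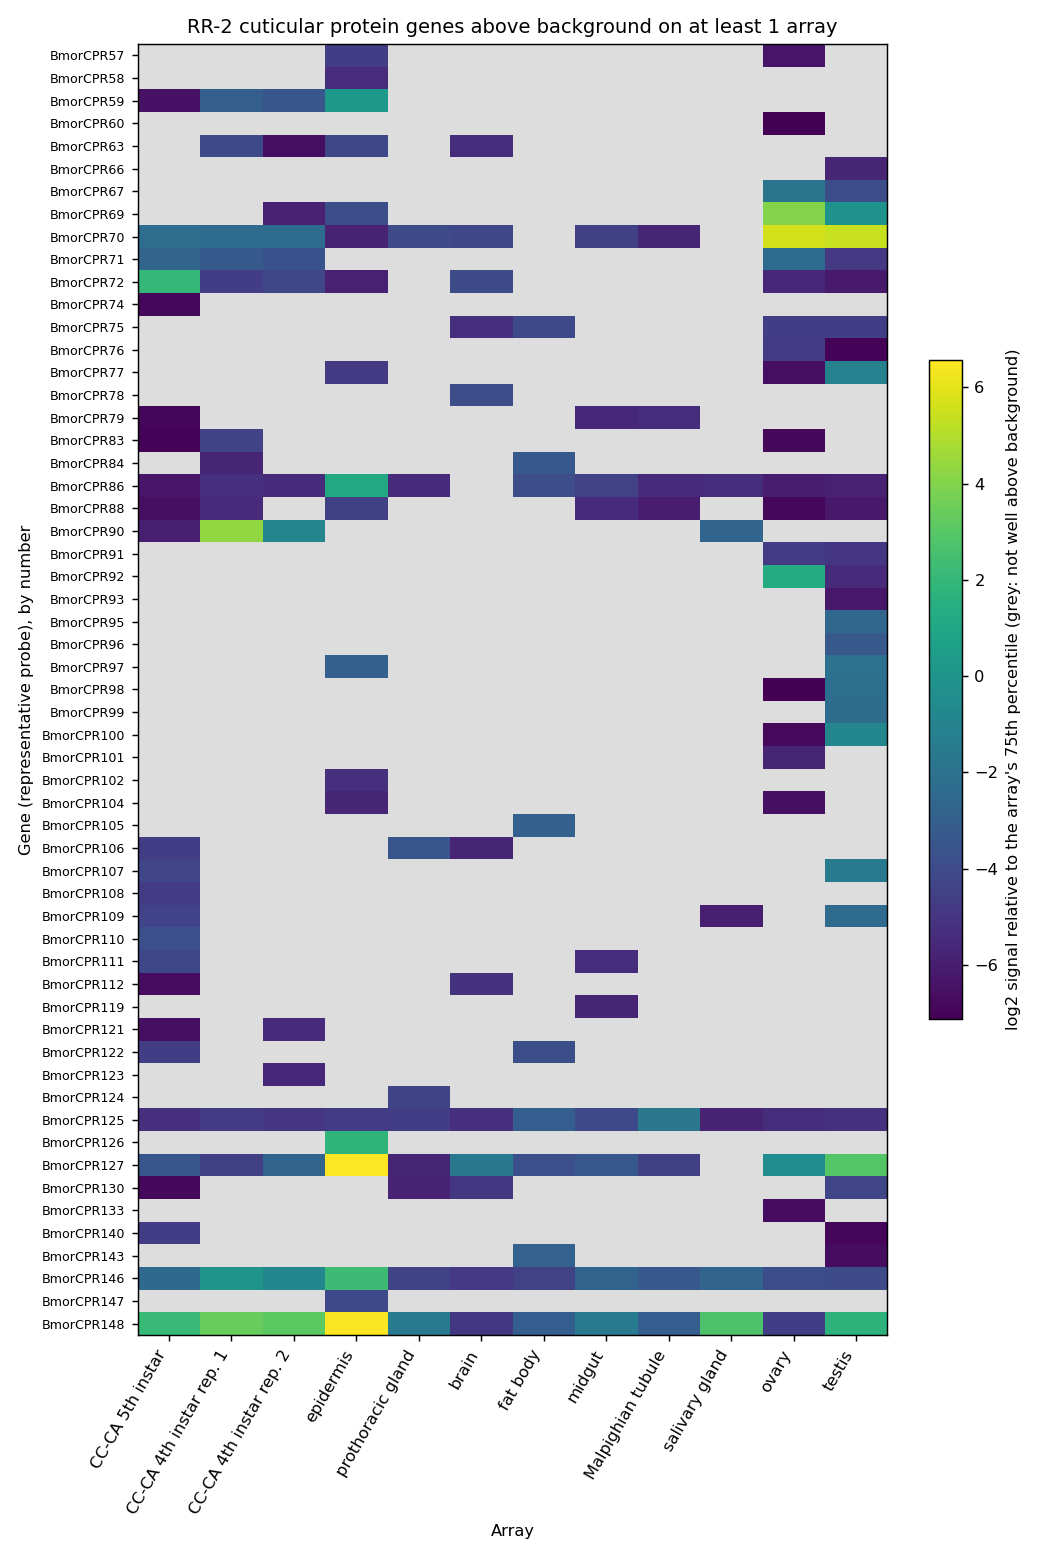
Log2 signal relative to the 75th percentile of the array, by colour, for 57 RR-2 genes detected on at least 1 of the 12 arrays (rows, by gene number; columns, arrays). Grey marks signals not well above background, which fill most cells, while BmorCPR125, BmorCPR146 and BmorCPR148 are coloured on every array.

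Testis, CC-CA of the 5th instar and ovary gave the most RR-2 genes. In testis 31 of the 92 were detected, in the CC-CA of the 5th instar 26, in ovary 25 and in epidermis 20. The same 3 arrays led over all probes, with 78.5% detected in testis, 75.3% in ovary and 74.8% in the CC-CA of the 5th instar, against 69.1% in epidermis and 60.2% in fat body, the lowest. Each 4th instar CC-CA array had 15. Between 6 (salivary gland) and 12 (brain) were detected in the other tissues. Asking for both probes, a count added after seeing the data, gave 25 genes in testis, 19 in the CC-CA of the 5th instar, 17 in ovary and 11 in epidermis.

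The sensitivity of the arrays differed alongside these counts. The lowest detectable signal was -7.50 in testis, -7.39 in the CC-CA of the 5th instar and -7.35 in ovary, against -5.02 in fat body, where it was highest. Above the common level of -5.02, 21 genes remained in testis, 14 in the CC-CA of the 5th instar, 14 in epidermis and 12 in ovary, against 12 and 9 in the CC-CA of the 4th instar. Testis kept the highest count, while ovary and epidermis changed places. Over all probes testis led at this level too, with 66.7% above it, against 64.1% in ovary and 64.0% in epidermis. The share was 63.0% in the 5th instar CC-CA, and 65.4% and 64.6% in replicates 1 and 2 from the 4th. RR-1 genes had another profile, with 36 of 56 detected in epidermis.

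**Figure D2:**
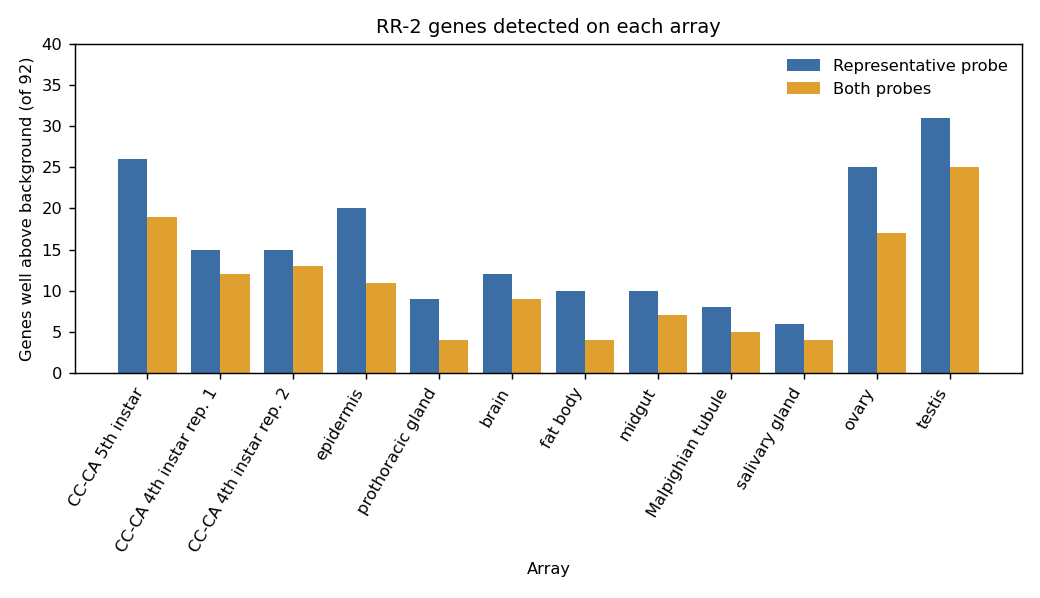
Number of the 92 RR-2 genes well above background on each of the 12 arrays, by the representative probe and by both probes of the gene. Testis has the highest bars (31 and 25 genes), and salivary gland the lowest count by the representative probe (6).

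A tissue of highest level could be given for 58 genes, and in 43 of them the other probe was detected there as well. Detection there did not always mean the same peak. The other probes of BmorCPR91, given to ovary, and BmorCPR96, given to testis, were highest in fat body. That of BmorCPR77, given to testis, was highest in epidermis, at 4.86 there and -1.02 in testis. The representative probe of BmorCPR77 read -4.79 in epidermis and -1.10 in testis. In 14 of the 58, the highest detected level lay below the lowest detectable signal of another array on which the gene was not detected, so their tissue of highest level is not established. These were 4 of the genes given to ovary, 3 to epidermis, 2 to testis, 2 to the CC-CA of the 5th instar, and BmorCPR79, BmorCPR112 and BmorCPR119. A group counted only where all its arrays detected the gene. BmorCPR83, given to ovary, read higher on 1 of the 2 arrays of the 4th instar CC-CA. BmorCPR121, given to the CC-CA of the 5th instar at -6.57, read higher on both, at -6.38 in replicate 1 and -5.45 in replicate 2. Of these it was detected in replicate 2 alone. Epidermis and testis led with 13 genes each, followed by ovary with 12, the CC-CA of the 5th instar with 7 and fat body with 5. Prothoracic gland, brain and Malpighian tubule led for 2 genes each, midgut for 1 (BmorCPR119) and the CC-CA of the 4th instar for 1 (BmorCPR90). None of the 92 was highest in salivary gland. Of the 56 RR-1 genes, 28 were highest in epidermis, 6 in salivary gland, 4 in ovary and 2 in testis. Among RR-2 genes, a margin of at least 4-fold over the next group was found for 8 of those highest in testis, 6 in epidermis and 4 in ovary. BmorCPR77 was among the 8. The contrast between the families is a count and was not tested.

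Epidermis is the tissue that secretes cuticle, and a set of RR-2 genes stood out there. Against every other group of the 4th instar, 9 of the 92 genes were called higher in epidermis, 7 of them on both probes. Of the 58 that could be tested this was 15.5%, beside 3.49% of all probes tested. A gene detected in any group was tested, so some entered through epidermis alone, BmorCPR126 and BmorCPR147 among those called. The count and the share are thus set in part by the filter. Among the other cuticular protein families, 24 of 56 RR-1 genes, 16 of 29 glycine-rich BmorCPG genes, 6 of 34 BmorCPH genes, 3 of 5 genes of the CPF type and 1 of 4 Tweedle genes were called.

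BmorCPR126 was at 1.82 in epidermis and not well above background on any of the other 11 arrays. Its level in epidermis was at least 114-fold that of fat body, the group it is bounded against (largest of its adjusted p-values, limma with Benjamini-Hochberg adjustment, 3.57e-05). The other probe behaved likewise, at 1.96 in epidermis and detected nowhere else. BmorCPR127, its neighbour in the genome, stood at 6.57 in epidermis, and at -1.61 in brain, the next group of the 4th instar. That difference was 289-fold (adjusted p = 0.000142, limma). BmorCPR127 was not confined to epidermis, with 2.88 in testis and detection on 11 of the 12 arrays.

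BmorCPR86 measured 1.22 in epidermis and -3.88 in fat body, the next group, a 34.2-fold difference (adjusted p = 0.000287, limma). BmorCPR59 measured 0.20 in epidermis, against -3.00 and -3.48 on the 4th instar CC-CA arrays, a 10.8-fold difference (adjusted p = 0.00159, limma). It was not detected in the other 4th instar tissues. Both probes of BmorCPR86 and BmorCPR59 were called.

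BmorCPR148 and BmorCPR146, at the end of the numbering that includes the RR-3 type, were detected on all 12 arrays and still peaked in epidermis. BmorCPR148 was 6.49 in epidermis, against 3.37 and 3.12 on the 4th instar CC-CA arrays, a 9.46-fold difference (adjusted p = 0.00183, limma). Its lowest level was -4.92, in brain. BmorCPR146 was 2.25 in epidermis, against -0.03 and -0.79 on the 4th instar CC-CA arrays, a 6.32-fold difference (adjusted p = 0.00823, limma). BmorCPR147 was detected in epidermis alone, at -4.09, at least 1.91-fold the level of fat body (adjusted p = 0.0133, limma). That call was lost with normexp background correction (adjusted p = 0.273), a floor (0.358), an intensity trend (0.142) and quantile normalisation (0.0573).

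The remaining calls rested on 1 probe each. BmorCPR97 read -2.95 and BmorCPR69 read -3.81 in epidermis on the representative probe, at least 4.22-fold and at least 2.31-fold the level of fat body (largest adjusted p-values 0.00112 and 0.0437, limma). With a floor under dim signals BmorCPR69 was not called (adjusted p = 0.246, limma). The other probe of either gene was not well above background in epidermis, and its least difference there was negative, at -1.09 for BmorCPR97 and -1.10 for BmorCPR69.

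Epidermis lay on the third slide with Malpighian tubule, testis and ovary, apart from the CC-CA arrays, so tissue and slide cannot be told apart in its comparisons with CC-CA. Within that slide, 5 of the 9 genes were at background in Malpighian tubule, and the other 4 were higher in epidermis by 5.61 to 11.07 on the log2 scale. Of the gonads on the same slide, which were of a later stage, both exceeded epidermis for BmorCPR69. It was at 4.01 in ovary and -0.11 in testis, against -3.81 in epidermis. BmorCPR97 was higher in testis, at -1.98, than in epidermis, at -2.95. The rest of the 9 genes were higher in epidermis than in either gonad. With quantile normalisation between arrays, 2 of the 9 were called, BmorCPR126 and BmorCPR86.

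RR-2 genes differed in both directions between the CC-CA of the 4th instar and epidermis. Of 23 genes tested between the pair, 16 were called lower in the CC-CA (10 on both probes), beside 14.6% of all probes tested. Higher in the CC-CA were 5 genes (all on both probes), beside 12.6%. The median log2 difference was -2.66 over the genes tested and -0.10 over all probes tested. Of the 23, 11 entered the test through epidermis alone, and these 11 are all among the 16. Another 3 entered through the CC-CA alone, and these 3 are all among the 5. Of the 9 detected in both groups, 2 were called higher and 5 lower in the CC-CA. Both counts and the median are thus set in part by the filter.

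The largest deficits were those of the epidermal genes above. BmorCPR127 was at -4.53 and -2.69 on the CC-CA arrays, against 6.57 in epidermis, or 1158-fold higher in epidermis (log2 difference -10.18 ± 0.64 SE, adjusted p = 3.77e-07, limma). BmorCPR126 was not well above background on either CC-CA array, and epidermis was at least 323-fold higher. BmorCPR86 was detected on both, at -5.28 and -5.50, against 1.22 in epidermis, which was 97.5-fold higher. BmorCPR97 and BmorCPR147 were at background on both CC-CA arrays, and epidermis was at least 11.9-fold and at least 5.39-fold higher.

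The genes higher in the CC-CA included the neighbours BmorCPR70, 71 and 72. BmorCPR70 was at -2.34 on each of the 2 CC-CA arrays, against -5.79 in epidermis, a 10.9-fold difference (log2 3.45 ± 0.43 SE, adjusted p = 7.88e-05, limma). BmorCPR71 was at -3.26 and -3.66, at least 5.53-fold above epidermis, where it was not well above background (adjusted p = 0.00118, limma). BmorCPR72 was at -4.65 and -4.22 in the CC-CA and -5.87 in epidermis, a 2.72-fold difference (adjusted p = 0.032, limma). That call was lost with normexp (adjusted p = 0.374), quantile normalisation (0.0977), no filter (0.109) and an intensity trend (0.0663).

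BmorCPR90 was called higher as well, but its 2 CC-CA arrays did not match. It read 4.36 and -0.91 in the CC-CA of the 4th instar, a gap of 5.27 log2 units, and both probes gave the same picture. Of all 29138 probes detected on both arrays, 31 had a gap of at least 5 (0.106%). The bound over epidermis was at least 234-fold (adjusted p = 0.000181, limma). With epidermis at its floor, the log2 difference was at least 5.23 from replicate 2 alone and at least 10.50 from replicate 1 alone.

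None of the 92 genes was called above every other tissue in the CC-CA of the 4th instar, while 1.56% of all probes tested were; at an unadjusted p below 0.05 in limma, 1 was. That gene was BmorCPR90, which outside the CC-CA was detected in salivary gland alone, at -2.67. The CC-CA mean of 1.73 ± 3.73 (SD, n = 2) was 21.1-fold higher than salivary gland, and the largest of its adjusted p-values was 0.0936 (limma).

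RR-2 transcripts of the CC-CA differed between the instars. Of 27 genes tested, 10 were called higher in the CC-CA of the 5th instar (8 on both probes), beside 3.47% of all probes tested. Lower were 4 (all on both probes), beside 7.04%. The median log2 difference was 0.16 over the genes tested and -0.03 over all probes tested. Of the 27, 15 entered the test through the 5th instar array alone, 9 of the 10 that rose among them, and that array also had the lower floor (-7.39, against -6.11 and -6.92), so the count and the median are set in part by the filter. Of the 11 detected in both stages, 1 rose and 3 fell. In the other families, 3 genes were called higher and 13 lower among 29 RR-1 genes tested, 3 and 9 among 17 BmorCPG genes, 1 and 8 among 19 BmorCPH genes, 1 and 1 among 2 Tweedle genes, and 0 and 2 among 2 of the CPF type. The difference between the families was not tested.

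BmorCPR72 had the largest rise. It measured 1.99 in the CC-CA of the 5th instar, against -4.65 and -4.22 in the 4th, so the 4th instar arrays agree within 0.43 log2 units while the 5th lies far above both. The difference was 85.7-fold (log2 6.42 ± 0.45 SE, adjusted p = 3.03e-06, limma). In the 9 other tissues BmorCPR72 ranged up to -4.01, in brain, and the other probe gave 1.98 in the CC-CA of the 5th instar.

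The other rises were of genes that were not well above background on either 4th instar array. BmorCPR110 was at -3.76 in the 5th instar, at least 6.75-fold above the 4th (adjusted p = 3.16e-05, limma), and was detected on no other array. BmorCPR111 was at -4.14 (at least 5.20-fold), BmorCPR107 at -4.24 (at least 4.85-fold) and BmorCPR109 at -4.40 (at least 4.35-fold). BmorCPR108 was at -4.74 (at least 3.44-fold), BmorCPR106 at -4.64 (at least 3.68-fold) and BmorCPR122 at -4.59 (at least 3.80-fold).

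Of these, BmorCPR106 to 111 and BmorCPR112 are neighbours. In the gene order of the RefSeq table they form a stretch of 7 consecutive RR-2 genes, and every one was called higher in the 5th instar. BmorCPR112 was the faintest, at -6.67, below the lowest detectable signal of the 4th instar replicate 1 (-6.11), so no fold is given for it. With dim signals raised to that floor its log2 difference was -0.15 (adjusted p = 0.895, limma), and its other probe was not detected in the 5th instar CC-CA. BmorCPR140 was called on its representative probe alone, at -4.63 and at least 3.70-fold.

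Among the 4 genes that fell was BmorCPR90, whose 4th instar arrays differed widely. It was at -5.99 in the CC-CA of the 5th instar, against 4.36 and -0.91 in the 4th, and lay below both (log2 difference -7.72 ± 1.37 SE, adjusted p = 0.00253, limma). The difference was -5.08 from replicate 2, which shared a slide with the 5th instar array, and -10.35 from replicate 1. BmorCPR63 was at background in the 5th instar CC-CA, against -4.12 and -6.62 in the 4th, at least 4.06-fold higher in the 4th (adjusted p = 0.00284, limma). The BmorCPR63 call was lost with normexp (adjusted p = 0.0754, limma), quantile normalisation (0.134) and a floor (0.0639).

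BmorCPR59 fell to -6.44 in the 5th instar, against -3.00 and -3.48 in the 4th, a 9.22-fold difference (log2 -3.21 ± 0.45 SE, adjusted p = 0.000516, limma). BmorCPR146 fell to -2.43, against -0.03 and -0.79, a 4.05-fold difference (log2 -2.02 ± 0.48 SE, adjusted p = 0.0161, limma). Both are among the genes called highest in epidermis. BmorCPR148, another of them, was at 2.08 in the 5th instar and at 3.37 and 3.12 in the 4th and was not called. With quantile normalisation BmorCPR59 alone of the 4 was called lower.

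**Figure D3:**
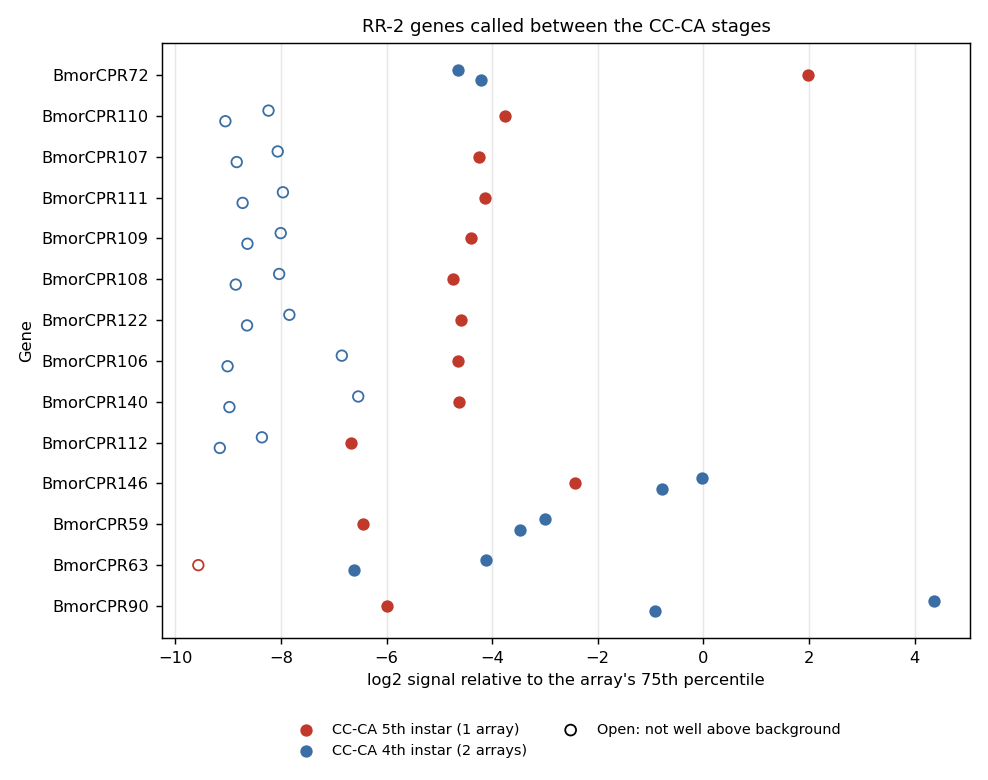
Log2 signal relative to the 75th percentile of the array for the 14 RR-2 genes called between the CC-CA stages: red, the 5th instar (1 array); blue, the 4th instar (2 arrays, drawn slightly apart); open circles, not well above background. For 10 genes, BmorCPR72 to BmorCPR112 from the top, the red point lies right of both blue ones, and for the bottom 4 it lies left of them.

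Within the slide shared by the 5th instar array and replicate 2, BmorCPR72 differed by 6.21 on the log2 scale. The other genes that rose were not well above background in replicate 2, and with the floor of that array they differed by at least 2.19, except BmorCPR112, by at least 0.25. BmorCPR90, BmorCPR59 and BmorCPR146 differed by -5.08, -2.97 and -1.63, and BmorCPR63, at background in the 5th instar, by -0.77 at its floor. Markers of other tissues moved between the same arrays. The epidermal pair had a summed level of -5.86 in the 5th instar CC-CA, against -4.05 and -3.05 in the 4th, with BmorCPR40 at background on all 3 and 1 of 2 markers detected on each. The 4 brain markers summed to -0.83 in the 5th instar (3 of 4 detected), against -1.82 and -1.80 in the 4th (2 of 4 detected), and the brain hormone gene EH was at background on all 3. The fat body marker AKHR and the midgut marker JHEH4 were at background on all 3. The Malpighian tubule marker DHR was at -6.30, against -4.25 and -5.13. Their part in the stage differences was not tested.

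Ovary and testis differed in their RR-2 transcripts. Between ovary and testis, which shared a slide, 37 genes were tested. Lower in ovary were 15 (13 on both probes), beside 14.2% of all probes tested, and higher in ovary were 8 (6 on both probes), beside 10.8%. The median log2 difference, ovary minus testis, was -0.21 over the genes tested and 0.31 over all probes tested. Of the 15, 10 entered through testis alone, and of the 8, 3 through ovary alone; of the 19 detected in both gonads, 5 were called lower and 5 higher in ovary. RR-1 genes divided as 5 lower and 10 higher in ovary, and BmorCPH genes as 2 lower and 9 higher. BmorCPG genes divided as 5 lower and 4 higher, those of the CPF type as 3 and 0, and Tweedle genes as 0 and 1. These family differences were not tested.

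BmorCPR92 was the gene most in favour of ovary, at 1.31 there and -5.44 in testis, a 108-fold difference (log2 6.75 ± 0.54 SE, adjusted p = 5.07e-06, limma). It was detected on no other array. BmorCPR69 was at 4.01 in ovary and -0.11 in testis (17.4-fold, adjusted p = 0.00575, limma). BmorCPR71 was at -2.31 in ovary and -4.88 in testis, and BmorCPR76 at -4.77 in ovary and -7.00 in testis, differences of 5.92-fold and 4.68-fold. BmorCPR101 and BmorCPR57 were not well above background in testis, with ovary at least 3.50-fold and at least 2.20-fold higher. The BmorCPR57 call rested on 1 probe. It was lost with normexp (adjusted p = 0.103, limma), quantile normalisation (0.138) and a floor (0.161). BmorCPR67 and BmorCPR133 were the remaining calls.

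BmorCPR107 and BmorCPR109, of the stretch that rose in the 5th instar CC-CA, were among the genes higher in testis. They were not well above background in ovary, against -1.44 and -2.36 in testis. Testis exceeded ovary at least 60.2-fold in the BmorCPR107 signal and at least 31.9-fold in that of BmorCPR109. The widely detected BmorCPR148 was at -4.58 in ovary and 1.71 in testis, 78.3-fold higher in testis.

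A second stretch of neighbours marked testis. BmorCPR95 to BmorCPR100, 6 consecutive RR-2 genes in the RefSeq order, were all called lower in ovary. BmorCPR100 was at -6.78 in ovary and -0.78 in testis, a 63.7-fold difference (adjusted p = 1.46e-05, limma). BmorCPR97 was not well above background in ovary and at -1.98 in testis, at least 41.5-fold higher there. The other 4 stood between -3.29 and -2.16 in testis. Testis was at least 16.7-fold higher for BmorCPR96, at least 26.6-fold for BmorCPR95, at least 34.1-fold for BmorCPR99 and, detected in ovary too, 31.1-fold for BmorCPR98. BmorCPR95, 96 and 99 were detected by the representative probe in testis alone. The other probe of BmorCPR96 was also detected elsewhere, and its highest level lay in fat body. The RefSeq table gives BmorCPR96 and BmorCPR97 a single shared entry.

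**Figure D4:**
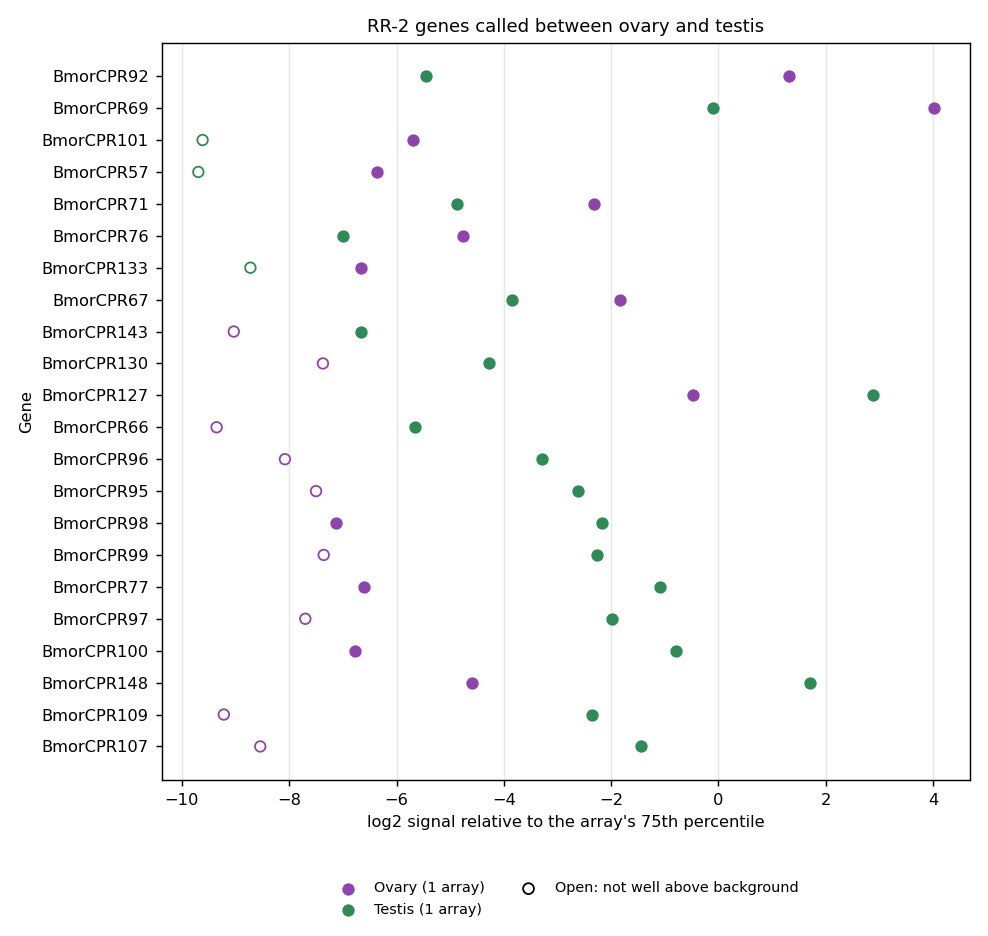
Log2 signal relative to the 75th percentile of the array for 22 RR-2 genes called between ovary (purple) and testis (green), 1 array each; open circles are not well above background. The top 8 genes lie higher in ovary and the bottom 14 higher in testis, and BmorCPR107 and BmorCPR109 are at background in ovary.

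BmorCPR70 was high in both gonads. It was at 5.69 in ovary and 5.44 in testis and did not exceed -2.26 on any other array. Epidermal markers were low in the gonads. The pair summed to -3.21 in ovary and -5.49 in testis, against 7.09 in epidermis, with BmorCPR40 at background in both gonads and BmorCPG13 detected in both.

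Fat body, with 5 genes at their highest level, had BmorCPR143 at -2.82 (at least 8.54-fold above the next group), BmorCPR105 at -2.91 (at least 8.02-fold) and BmorCPR84 at -3.38 (at least 5.80-fold). Both probes were highest in fat body for BmorCPR105 and BmorCPR84. BmorCPR84 was also detected on replicate 1 of the 4th instar CC-CA, at -5.70. Its bound is against whole groups and does not hold for that array alone. The other probe of BmorCPR84 read -5.50 on that array and -3.74 in fat body. The other probe of BmorCPR143 was not well above background in fat body and was detected in the 4th instar CC-CA replicate 1, prothoracic gland and brain instead. BmorCPR122 was at -3.83 in fat body, 1.69-fold above the CC-CA of the 5th instar, and BmorCPR75 at -4.13, 1.39-fold above testis. The other probe of BmorCPR75 was not well above background in fat body and was highest in testis.

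Few genes were highest in the remaining tissues. BmorCPR78 was detected in brain alone, at -3.89 and at least 2.20-fold above the next group, and by both probes. BmorCPR106 was at -3.56 in prothoracic gland, 2.11-fold above the CC-CA of the 5th instar, although its other probe was detected in that CC-CA alone. BmorCPR124 was detected in prothoracic gland, at -4.30, by 1 probe. BmorCPR125 had its highest level in Malpighian tubule, at -1.68, 2.60-fold above fat body. It was detected on all 12 arrays, but its other probe on none, so its breadth rests on 1 probe.

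The order of these genes in the genome was read from the RefSeq gene table of Bombyx mori, which matched 85 of the 92 names. The files name no genome build, so no positions are given. Of the 85, 71 lay in 4 runs of at least 3 RR-2 genes with no more than 5 genes between neighbours, and the longest run held 51. It ran from BmorCPR130 to BmorCPR79 and held 16 genes detected on no array. Testis was the tissue of highest level for 10 genes of the run, epidermis for 7, ovary for 4 and the CC-CA of the 5th instar for 4.

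In a shorter run, BmorCPR67, 69, 70 and 71 were highest in ovary. The margin was small for BmorCPR70, 1.19-fold over testis. It was also small for BmorCPR71, at -2.31 in ovary and -2.67 in the CC-CA of the 5th instar (1.28-fold). Their neighbour BmorCPR72 was highest in the CC-CA of the 5th instar, and BmorCPR73 was detected on no array.

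**Figure D5:**
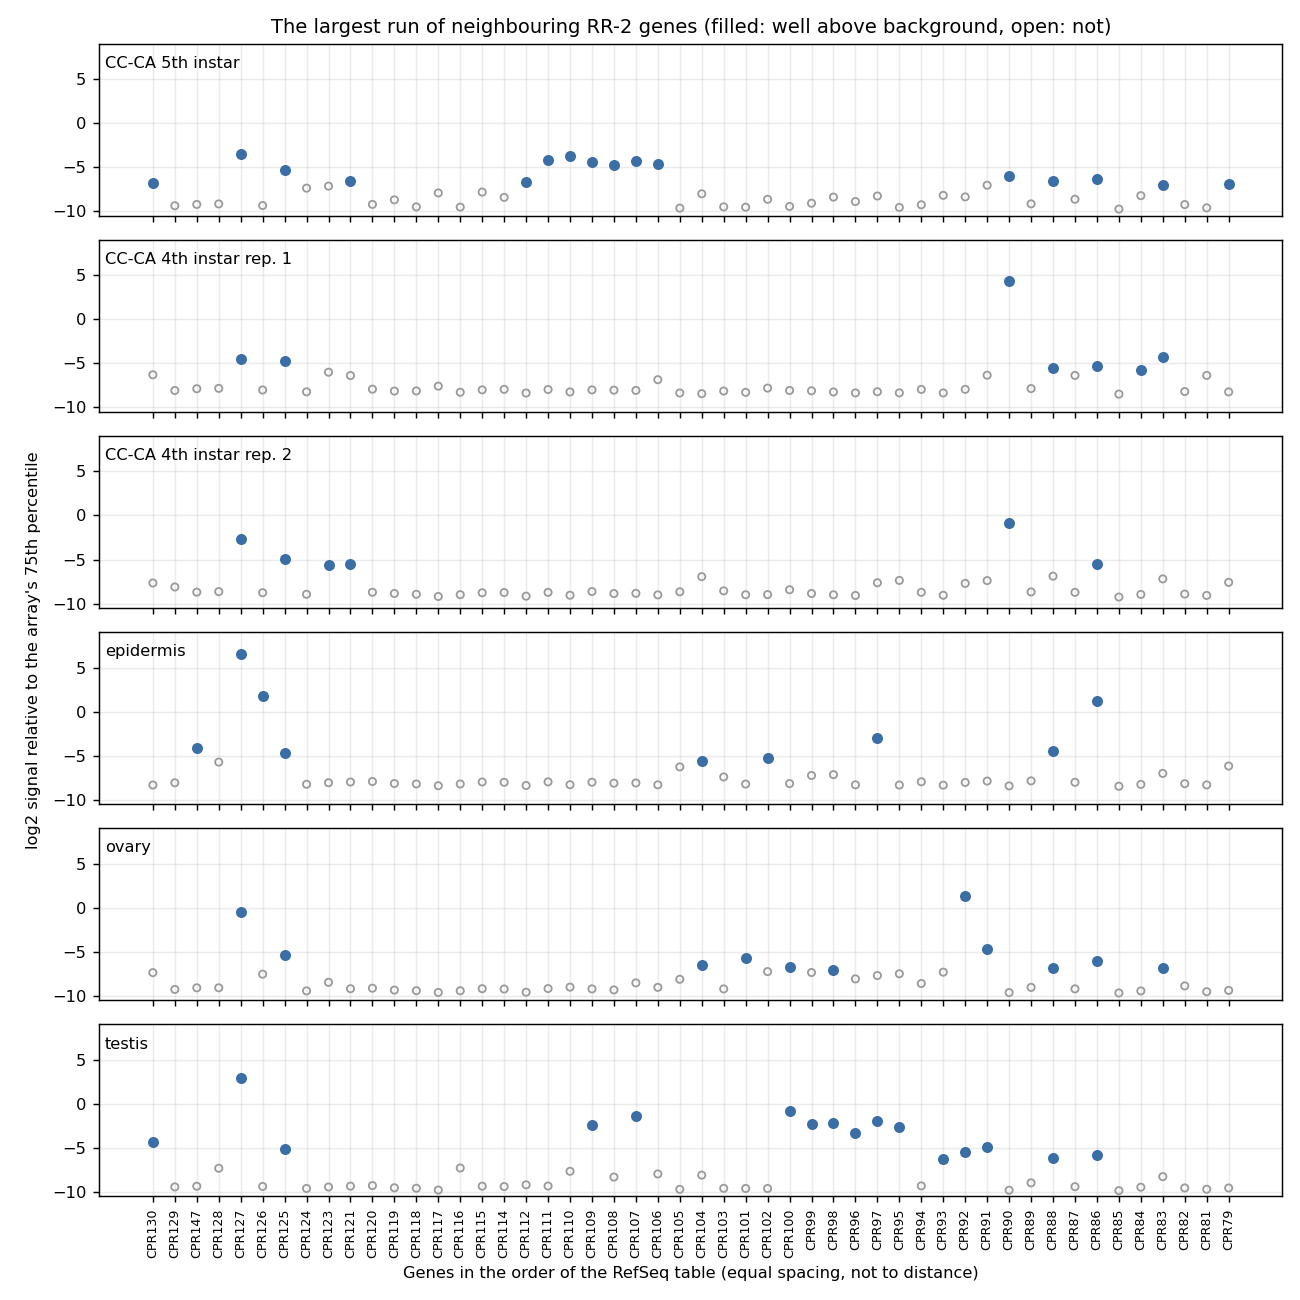
Log2 signal relative to the 75th percentile of the array for 50 of the 51 RR-2 genes of the longest run, in the order of the RefSeq table and at equal spacing, on 6 of the 12 arrays; filled points are well above background, open ones not. The CC-CA of the 5th instar shows 7 filled neighbours from BmorCPR112 to BmorCPR106 and testis 6 from BmorCPR100 to BmorCPR95.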

How the data were processed

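The deposited scanner files, made with Agilent Feature Extraction 9.5.3.1 per the submitters' processing notes, hold spot intensities. Per the file headers, the authors' processed intensity is background-subtracted and not normalised between arrays. Of 45220 spots, 43803 were no controls. Here log2 of the processed signal minus the 75th percentile of each array was taken, spots with outlier marks were left out, spots of a probe were averaged, and 224 of 42564 probes without a value on every array were dropped (1 of BmorCPR57 among them). The authors' deposited value table holds intensity on a linear scale, each column being the processed signal divided by 1 constant. Its column medians were 11.1 (CC-CA, 5th instar), 10.4 and 10.6 (CC-CA, 4th), 7.82 (epidermis), 9.43 (prothoracic gland), 7.93 (brain), 7.26 (fat body), 7.33 (midgut), 8.81 (Malpighian tubule), 10.3 (salivary gland), 7.71 (ovary) and 5.5 (testis). How its columns were centred is unknown.

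Groups were taken from the labels. The software was R 4.3.3, limma 3.58.1, the R package data.table (version 1.17.8) and matplotlib 3.10.9. The limma fits had a mean for each of the 11 groups and all 12 arrays. Their p-values were adjusted over all probes tested, and the fits were checked on simulated data. Between 2 groups, a probe was tested where all arrays of either group detected it, and against several groups where all arrays of any of the 11 did. Of the 3 slides, the first carried brain, fat body, prothoracic gland and replicate 1 of the 4th instar CC-CA. The second carried its replicate 2, salivary gland, midgut and the 5th instar CC-CA, and the third the remaining 4 arrays. Alternatives changed background correction, normalisation, filter, floor, moderation, threshold and probe.

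For a bound, a dim array entered with its lowest detected signal, or with the probe's own signal where that was higher. Named genes are those called between the CC-CA stages or above in epidermis or CC-CA, up to 6 per direction in the other pairs, up to 6 per tissue by their margin over the next one, and those on all 12 arrays. BmorCPR112's other probe, the stretches and the undetected genes were described after their values were seen. The members, gene lists and markers were chosen with earlier results of these data known. Sequences of the probes were not used here. A few of the genes are not reported here.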

Additional observations from a re-analysis of the deposited data

How the results depend on the processing

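The median of all probes moved between the CC-CA stages by -0.23 on the log2 scale in the scaling used, and by between -0.36 (floor under dim signals) and 0.07 (deposited value table) under the others. Between ovary and testis it moved by 0.18, and by 0.83 in the value table. With quantile normalisation the genes called lower in the 5th instar CC-CA were 1 rather than 4, those above in epidermis 2 rather than 9, those higher in the 4th instar CC-CA than in epidermis 3 rather than 5, and those higher in ovary than in testis 5 rather than 8. Of the 46 comparisons of named genes, 32 kept their call under it and 14 kept their direction only, while 40 to 46 kept their call under the 7 other planned settings. Of the genes lower in the CC-CA than in epidermis, 16 by the representative probe, 10 were called on both probes, a count added after seeing the data. BmorCPR90 alone was called above every other tissue in the 4th instar CC-CA, making 1 gene rather than 0, with normexp, with the 75th percentile over probes detected everywhere, with a floor, without the filter and with an intensity trend (adjusted p in limma 3.9e-11 to 0.0375). Pairs of gene and array above background numbered 405 by the weaker scanner call, 187 by the one used and 118 above the highest array floor, the last added after seeing the data. The reversed differences were -0.15 for BmorCPR112 with a floor, and -1.09 and -1.10 for BmorCPR97 and BmorCPR69 in epidermis by the other probe. The cause was not tested. Leaving out each CC-CA replicate left no residual degree of freedom, so only sizes were checked: 10 higher and 4 lower in the 5th instar kept a log2 difference of at least 1 without either one, and 15 to 16 of the genes lower than in epidermis. No paired analysis was possible because only the 4th instar CC-CA had a second replicate. A fit with slide as a block had no residual degree of freedom. The files hold no mean signal, so normexp used the median signal.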
